A study of Mus musculus with 36 samples.

Results

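The stearoyl-CoA desaturases of the mouse are Scd1, Scd2, Scd3 and Scd4, 4 of the 49315 genes in the deposited table, and they were selected by gene name alone. They were measured in liver polyA RNA from 36 male mice, 11 to 12 weeks of age, which formed 9 groups of 4. They carried liver X receptor alpha (LXRalpha) edited with CRISPR so that phenylalanine replaced tryptophan at residue 441, as heterozygotes (W/F) or homozygotes (F/F), and W/W mice with 2 unedited alleles served as controls. Each genotype was studied on normal chow, on a MASH (metabolic dysfunction-associated steatohepatitis) diet with vehicle, and on the same diet plus T0901317, a synthetic agonist of LXR. This diet lasted 4 weeks, and vehicle or T0901317 at 10 mg/kg was given by oral gavage every day of the last 2 weeks. Chow mice came from a separate cohort, and no gavage is given for them, so diet, gavage and cohort cannot be told apart. In the text below, a vehicle or T0901317 mouse is always a mouse on the MASH diet. The labels describe the edit as a property of the mice and name no cell type to which it was restricted.

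A stearoyl-CoA desaturase is an enzyme of the endoplasmic reticulum that places a double bond in a saturated acyl-CoA, turning stearoyl-CoA into oleoyl-CoA and palmitoyl-CoA into palmitoleoyl-CoA. Electrons reach it from NADH through cytochrome b5 reductase and cytochrome b5, and its products go into triglycerides, cholesterol esters and phospholipids. Scd1 is the main form of adult liver and a textbook target of LXR, both directly and through the lipogenic factor SREBP-1c. Scd2 is known from brain and from the liver of newborn mice, Scd3 from skin and its glands, and Scd4 from heart.

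All 4 genes lie side by side on chromosome 19 (GRCm38, GENCODE M21 annotation), within 205 kb. Scd3 (ENSMUSG00000025202) occupies chr19:44203269-44244016 on the plus strand, and Scd2 (ENSMUSG00000025203) follows at chr19:44293674-44306864 on the plus strand. Scd4 (ENSMUSG00000050195) lies at chr19:44333092-44346743 on the plus strand, and Scd1 (ENSMUSG00000037071) at chr19:44394455-44407879 on the minus strand. The gaps between neighbours were 49.7 kb from Scd3 to Scd2, 26.2 kb from Scd2 to Scd4 and 47.7 kb from Scd4 to Scd1. The predicted proteins have 355 residues for Scd1, 358 for Scd2, 359 for Scd3 and 353 for Scd4. Scd1 shares 87.0% of its residues with Scd2, 89.0% with Scd3 and 79.6% with Scd4.

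Because the genes are close copies, a read can be assigned to the right member only where their sequences differ. A coding stretch of a single exon is shown first, chosen because it holds 1 of the conserved histidine boxes that bind the iron of the active site. It lies in exon 4 of 6 in each gene, is written 5′ to 3′ on the coding strand, and has in capitals the bases that differ from Scd1.
Scd1: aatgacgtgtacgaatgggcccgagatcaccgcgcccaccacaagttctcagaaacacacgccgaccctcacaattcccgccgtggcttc
Scd2: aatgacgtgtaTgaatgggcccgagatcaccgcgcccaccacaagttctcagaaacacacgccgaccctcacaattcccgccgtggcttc
Scd3: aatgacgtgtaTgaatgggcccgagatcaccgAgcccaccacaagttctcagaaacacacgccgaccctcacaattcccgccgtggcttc
Scd4: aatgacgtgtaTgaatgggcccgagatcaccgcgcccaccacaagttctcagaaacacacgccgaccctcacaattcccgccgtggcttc
These 90 bases are at chr19:44401809-44401898 in Scd1, chr19:44299609-44299698 in Scd2, chr19:44235771-44235860 in Scd3 and chr19:44338910-44338999 in Scd4, and differ from Scd1 at 1 base in Scd2, 2 in Scd3 and 1 in Scd4. Scd2 and Scd4 are identical over this stretch, and a short read from it could not be told between them.

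A second stretch, in exon 5 of 6, is one where a read separates all 4 genes. Only coding windows of 60 bases within 1 exon after the histidine box, without gaps between members, were searched. The window with most differences from Scd1 was taken. It is written in the same way, again with the bases that differ from Scd1 in capitals.
Scd1: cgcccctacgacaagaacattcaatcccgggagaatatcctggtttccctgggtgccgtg
Scd2: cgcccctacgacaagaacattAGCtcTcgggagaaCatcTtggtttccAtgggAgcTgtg
Scd3: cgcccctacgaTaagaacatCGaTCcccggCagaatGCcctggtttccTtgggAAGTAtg
Scd4: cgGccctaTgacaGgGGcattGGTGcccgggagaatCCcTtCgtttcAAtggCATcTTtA
These 60 bases lie at chr19:44400143-44400202 in Scd1, chr19:44301384-44301443 in Scd2, chr19:44238548-44238607 in Scd3 and chr19:44341393-44341452 in Scd4. Scd2 differs from Scd1 at 9 of them, Scd3 at 14 and Scd4 at 21. Over all exons, untranslated parts included, 4.56% of the 50-base stretches of Scd1, 3.75% of those of Scd2, 6.26% of those of Scd3 and 3.01% of those of Scd4 occurred also in another member. How the authors' counting treated reads that match more than 1 gene is not given in the sources used here.

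Levels are in TPM (transcripts per 1000000 transcripts, a unit corrected for gene length, so that genes can be set side by side). The libraries held 18.0 to 35.7 M reads (M, 1000000), a depth recovered from the steps between small TPM values. Alb, the albumin of hepatocytes, was the most abundant gene in W/W mice with T0901317 at a mean of 51422 TPM, as the label liver implies. In bulk RNA, fewer cells of a type and less RNA per cell cannot be told apart. Of the 72 sums of a marker list within a group, 6 had 1 mouse far from the other 3 by Dixon's test, which chance gives in about 1 of 20. W/F T0901317 replicate 2 was such a mouse for the lymphocyte list, at 15.7 TPM against 2.73 to 4.87 TPM, and had 765 TPM over 11 markers of Kupffer cells and macrophages, against 141 to 254 TPM in the other 3 mice of that group. Scd1 and Scd2 results and list counts that rest on it are given with and without it. In W/W chow replicate 2 the neutrophil list was at 22.8 TPM, against 1.22 to 4.33 TPM in the other 3, and this mouse had the highest Scd2 of its group.

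Scd1 varied over 3 orders of magnitude across the study, and in W/W liver it was among the most abundant transcripts. On chow the 4 W/W mice had 3818, 4146, 1423 and 5447 TPM. The W/W vehicle mice had 5889, 11171, 8114 and 6408 TPM, and the W/W mice with T0901317 had 22177, 22058, 21511 and 21335 TPM. The 3 groups did not overlap, and with T0901317 Scd1 alone held 2.13% to 2.22% of all TPM and ranked 6 or 7 among the genes of each library.

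In W/F liver the same gene was far lower, most of all on chow. The W/F chow mice had 30.0, 63.5, 37.8 and 21.8 TPM of Scd1. The W/F vehicle mice had 322, 616, 612 and 504 TPM, and the W/F mice with T0901317 had 2253, 1810, 1704 and 1834 TPM. The order of the treatments was that of the W/W mice and their ranges did not overlap, but the highest W/F vehicle mouse was below the lowest W/W chow mouse.

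In F/F liver the order of the treatments was different, because the vehicle mice were the lowest. The F/F chow mice had 93.5, 53.3, 50.3 and 58.6 TPM of Scd1. The F/F vehicle mice had 11.2, 15.0, 13.7 and 12.6 TPM, and the F/F mice with T0901317 had 491, 697, 559 and 583 TPM. With vehicle, Scd1 ranked between 6602 and 7507 among the genes of these 4 livers.

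Across the 9 groups, mean Scd1 ran from 21770 ± 410 TPM in W/W mice with T0901317 to 13.1 ± 1.61 TPM with vehicle in F/F (n = 4 each, SD), a ratio of 1659. Between these came W/W vehicle, W/W chow, W/F T0901317, F/F T0901317, W/F vehicle, F/F chow and W/F chow. W/W chow overlapped with W/F T0901317, F/F T0901317 with W/F vehicle, and F/F chow with W/F chow, so these neighbours in the order are not separated by their spread. The overlap of W/W chow rests on replicate 3, at 1423 TPM.

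Scd2, the form known from brain, was low in W/W liver on chow and vehicle and much higher with T0901317. The W/W chow mice had 1.84, 5.56, 1.78 and 3.68 TPM of Scd2, and the W/W vehicle mice had 2.23, 2.73, 2.27 and 3.37 TPM. The W/W mice with T0901317 had 68.2, 91.9, 65.1 and 43.3 TPM. The lowest of these 4 was above every other W/W mouse by more than the whole range of the W/W chow and vehicle mice.

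In W/F liver Scd2 was as low on chow as in W/W liver, and high with vehicle. The W/F chow mice had 2.84, 2.72, 5.33 and 1.97 TPM, and the W/F vehicle mice had 18.9, 20.98, 19.7 and 15.2 TPM. The W/F mice with T0901317 had 6.76, 19.2, 8.99 and 10.1 TPM. All W/F vehicle mice were above all W/F chow mice, while 1 of the 4 mice with T0901317, replicate 2 at 19.2 TPM, lay among the vehicle mice.

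The F/F mice had the highest mean Scd2 of the 3 genotypes on chow and with vehicle. The F/F chow mice had 12.2, 3.66, 13.9 and 10.4 TPM, with replicate 2 inside the range of the W/W chow mice. The F/F vehicle mice had 17.3, 25.3, 25.5 and 25.9 TPM, and the F/F mice with T0901317 had 47.3, 46.1, 29.3 and 30.4 TPM. These 3 groups did not overlap.

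The order of mean Scd2 began with W/W T0901317 at 67.1 ± 19.9 TPM, F/F T0901317 at 38.3 ± 9.74 TPM and F/F vehicle at 23.5 ± 4.13 TPM (SD, n = 4 each). W/F vehicle at 18.7 ± 2.501 TPM, W/F T0901317 at 11.3 ± 5.47 TPM and F/F chow at 10.04 ± 4.50 TPM followed (SD, n = 4 each). W/W chow at 3.22 ± 1.80, W/F chow at 3.21 ± 1.46 and W/W vehicle at 2.65 ± 0.529 TPM were the lowest (SD, n = 4 each). Every group overlapped with the next in this order except F/F T0901317 with F/F vehicle. Without replicate 2, the mean Scd2 of W/F T0901317 mice was 8.62 TPM and that of W/W chow mice 2.43 TPM.

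**Figure D1:**
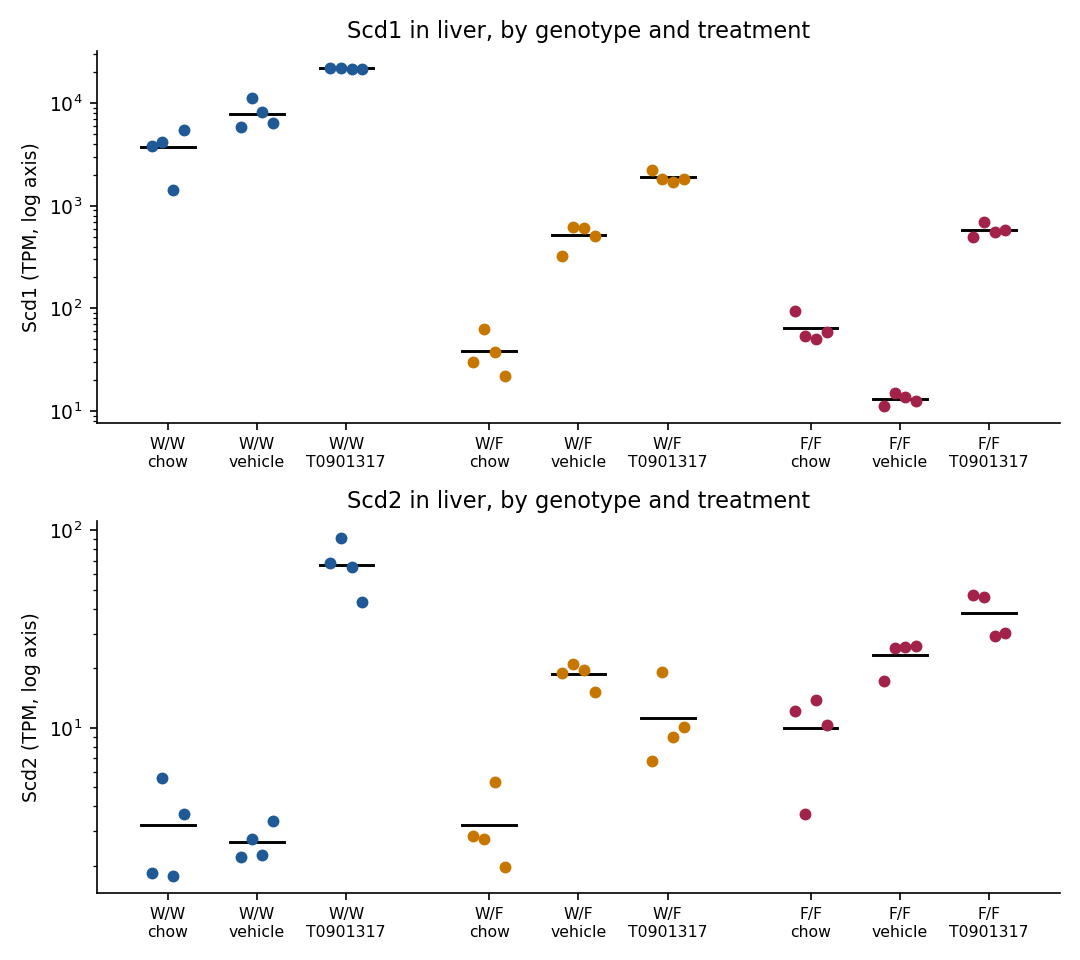
Scd1 (upper panel) and Scd2 (lower panel) in TPM on log axes, by genotype and treatment; points are mice and bars are means of 4. Scd1 spans 11.2 to 22177 TPM and is lowest in F/F vehicle mice, while Scd2 spans 1.78 to 91.9 TPM and is low in W/W mice on chow and vehicle.

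The balance between Scd1 and Scd2 within a liver, which does not depend on how a library was scaled, differed widely among groups. In W/W mice, Scd1 exceeded Scd2 by 1275 ± 631 times on chow, 3051 ± 974 times with vehicle and 347 ± 106 times with T0901317 (n = 4 each, SD). Among W/F mice the ratio was 13.0 ± 7.08 on chow, 27.7 ± 7.28 with vehicle and 200 ± 98.9 with T0901317 (SD, n = 4 each). Without W/F T0901317 replicate 2 the last of these was 235 ± 85.2 (SD, n = 3). T0901317 mice thus had the lowest mean ratio of the 3 treatments in W/W and the highest in W/F. In F/F mice the ratio was 7.87 ± 4.76 on chow, 0.566 ± 0.0688 with vehicle and 15.9 ± 4.16 with T0901317 (SD, n = 4 each).

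F/F vehicle was the only group of the 9 in which Scd2 exceeded Scd1, and it did so in all 4 mice, whose ratios ran from 0.489 to 0.647. Scd2 made up 59.8% to 66.6% of the summed TPM of the 4 desaturases in these livers. In W/W vehicle livers its share was 0.0244% to 0.0525%. The summed TPM of the 4 members was 36.9 ± 5.37 with vehicle in F/F and 7898 ± 2382 with vehicle in W/W (n = 4 each, SD). In W/W vehicle mice Scd1 was at 5889 TPM or more and Scd2 at or below 3.37 TPM. In F/F vehicle mice Scd1 was at 15.0 TPM or less and Scd2 at 17.3 TPM or more. Such an opposite order did not hold in every group. W/W mice with T0901317 had the highest mean of both, at 21770 and 67.1 TPM, and W/F chow mice had low means of both, at 38.3 and 3.21 TPM.

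**Figure D2:**
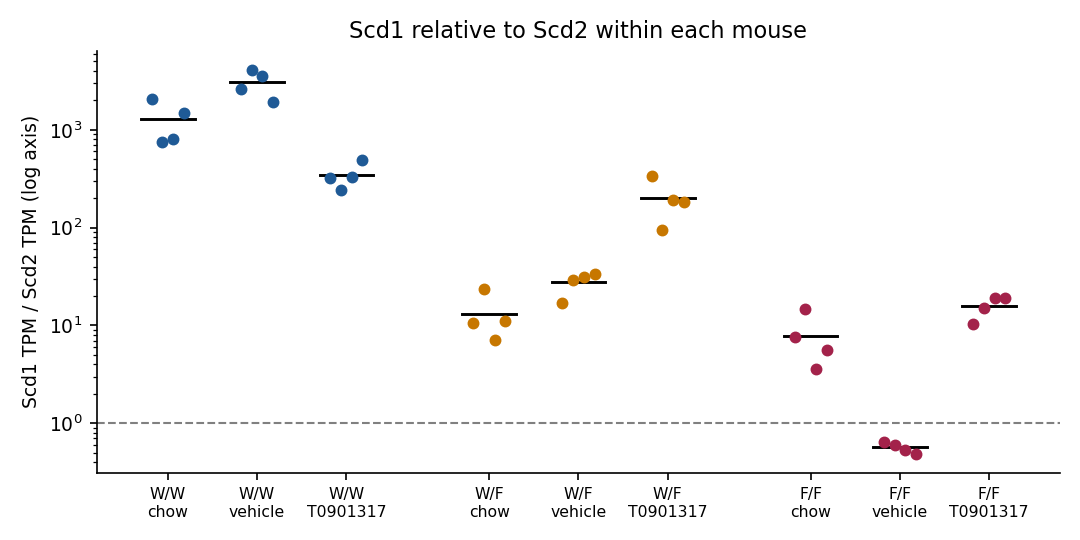
Ratio of Scd1 TPM to Scd2 TPM in each mouse on a log axis, by genotype and treatment; points are mice, bars are means of 4 and the dashed line marks equal levels. The 4 F/F vehicle mice, at 0.489 to 0.647, lie under the line and all other mice lie above it.

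Scd3 and Scd4 were close to the limit of detection in every liver and did not meet the filter, which asked for 1 TPM or more in 4 or more samples. Scd3 reached at most 0.459 TPM and Scd4 at most 0.329 TPM. In reads, Scd3 had 5, 3, 1 and 10 in W/W chow mice, 0, 4, 2 and 2 in W/W vehicle mice and 11, 9, 4 and 9 in W/W mice with T0901317. It had at most 3 reads in any W/F mouse and at most 1 in any F/F chow mouse, but 14, 5, 8 and 2 in F/F vehicle mice and 8, 4, 4 and 2 in F/F mice with T0901317.

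Scd3 reads did not simply follow Scd1, since F/F vehicle mice, with 11.2 to 15.0 TPM of Scd1, had 2 to 14 reads of Scd3 and W/W mice with T0901317 had 4 to 11. Scd4 had 3, 4, 7 and 9 reads in W/W mice with T0901317 and 17, 4, 5 and 8 in F/F mice with T0901317. It had 5, 0, 5 and 6 reads in F/F chow mice and no more than 6 in any W/F mouse. Neither gene had more than 17 reads in a library, and a level of 3 reads or fewer over a group is at the limit of detection, with limits that cover counting error only.

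In a fit of all 32923 genes with any value, without the filter, limma gave an adjusted p under 0.05 for Scd3 in 7 of the 21 comparisons and for Scd4 in 2. The smallest adjusted p was 8.23e-04 for Scd3, for the diet in F/F, and 0.00413 for Scd4, for F/F against W/F on T0901317. In the fit with the filter, the share of all genes called ran from 0.487% to 76.5% over the 21 comparisons. It was 55.8% for the diet in F/F and 62.6% for F/F against W/F on T0901317. The numbers at an unadjusted p under 0.05 were 11 for Scd3 and 8 for Scd4. These calls rest on the read numbers above, and no fold is given for either gene.

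**Figure D3:**
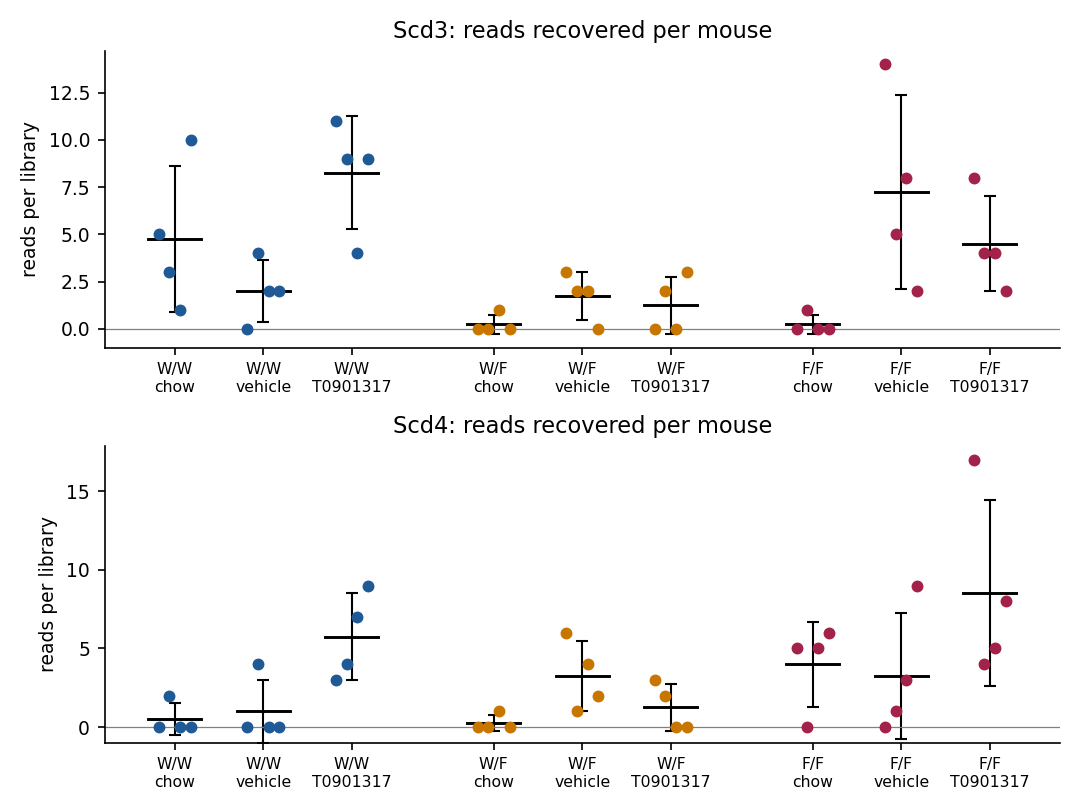
Reads recovered per library for Scd3 (upper panel) and Scd4 (lower panel), by genotype and treatment, on linear axes; points are mice, horizontal bars are means of 4 and error bars are SD. No liver had more than 14 reads of Scd3 or 17 of Scd4.

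T0901317 against vehicle shows how each desaturase answers the agonist on the MASH diet. Differences are fitted by limma on log2(TPM + 1) over 16638 genes, with an SE of 0.30 for Scd1 and 0.32 for Scd2, and calls are made where p, adjusted by Benjamini-Hochberg, is under 0.05. Mean Scd1 was 2.76-fold higher with T0901317 in W/W (log2 difference 1.51, adjusted p 6.44e-04), where 10.8% of genes were called. In W/F it was 3.70-fold higher (log2 1.92, adjusted p 1.72e-06; 1.94 without replicate 2), where 65.9% of genes were called. The rise in F/F was 44.4-fold (log2 5.36, adjusted p 6.23e-14), the third largest rise of all genes tested there, where 35.1% of genes were called.

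Scd2 answered differently in each genotype. In W/W its mean was 25.3-fold higher with T0901317 (log2 4.18, adjusted p 4.46e-11), the fifth largest rise of all genes. In W/F it was 1.66-fold lower (log2 -0.77, adjusted p 0.0328), with overlapping mice. That call was lost after rescaling the libraries to their median gene (log2 -0.30, adjusted p 0.400), and without replicate 2 of the T0901317 mice the difference was -1.04 (adjusted p 0.00529). In F/F it was 1.63-fold higher with no overlap, a difference of 0.66 that missed the threshold (adjusted p 0.0972) and passed it after rescaling (0.89, adjusted p 0.0318).

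Tested directly, the Scd1 response to T0901317 was larger in F/F than in W/W by 3.86 on the log2 scale (adjusted p 1.23e-07) and than in W/F by 3.44 (adjusted p 5.77e-06). These contrasts called 30.4% and 19.2% of genes. Between W/F and W/W the Scd1 responses differed by 0.41 with an SE of 0.42 (adjusted p 0.407), where 58.5% of genes were called. The Scd2 response fell short of that of W/W in both mutants, with a difference of -4.95 for W/F (adjusted p 7.40e-10) and -3.52 for F/F (adjusted p 1.53e-06). The Scd2 response was larger in F/F than in W/F by 1.43 (adjusted p 0.0240), a call that 4 of the 16 omissions of a mouse ended. Without W/F T0901317 replicate 2, the Scd1 differences were 0.44 for W/F minus W/W (adjusted p 0.409) and 3.42 for F/F minus W/F, and those of Scd2 were -5.22 and 1.70. On the log2 scale, Scd1 thus responded more in F/F than in W/W, and Scd2 less. In TPM, mean Scd1 went from 7896 to 21770 in W/W and from 13.1 to 583 in F/F, so the levels reached in F/F stayed far lower.

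The MASH diet with vehicle, set against chow, gives the change with diet, gavage and cohort together. In W/W, mean Scd1 was 2.13-fold higher on the diet (log2 1.20, adjusted p 0.00681), with 12.9% of genes called. Without W/W chow replicate 3 the difference was 0.79 (adjusted p 0.0428), and in a fit of the compared groups alone it missed the threshold (adjusted p 0.148). In W/F, Scd1 was 13.4-fold higher on the diet (log2 3.77, adjusted p 5.42e-12), with 61% of genes called. In F/F, Scd1 was 4.87-fold lower on the diet (log2 -2.16, adjusted p 4.17e-07), with 55.8% of genes called.

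Scd2 did not pass the test with the diet in W/W (log2 -0.12, SE 0.32, adjusted p 0.876), and the difference was 0.12 without W/W chow replicate 2 (adjusted p 0.899). It was 5.81-fold higher on the diet in W/F (log2 2.27, adjusted p 3.04e-07) and 2.34-fold higher in F/F (log2 1.26, adjusted p 0.00115), without overlap in either. On the diet Scd1 and Scd2 therefore both rose in W/F and moved apart in F/F, with Scd1 falling and Scd2 rising.

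The difference of the diet responses was called for Scd1 in each pair of genotypes. It was 2.57 for W/F minus W/W (adjusted p 8.59e-06), -3.36 for F/F minus W/W (adjusted p 6.28e-07) and -5.94 for F/F minus W/F (adjusted p 1.00e-10). These contrasts called 54.6%, 46% and 6.83% of genes. For Scd2 it was 2.40 for W/F minus W/W (adjusted p 5.07e-05) and 1.38 for F/F minus W/W (adjusted p 0.0125), the latter falling to 1.00 after rescaling (adjusted p 0.0672). For F/F minus W/F it was -1.01 with an SE of 0.45 (adjusted p 0.180). Without W/W chow replicate 2, the Scd1 differences from W/W were 2.47 and -3.47, and those of Scd2 were 2.15 and 1.14, all 4 still called.

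**Figure D4:**
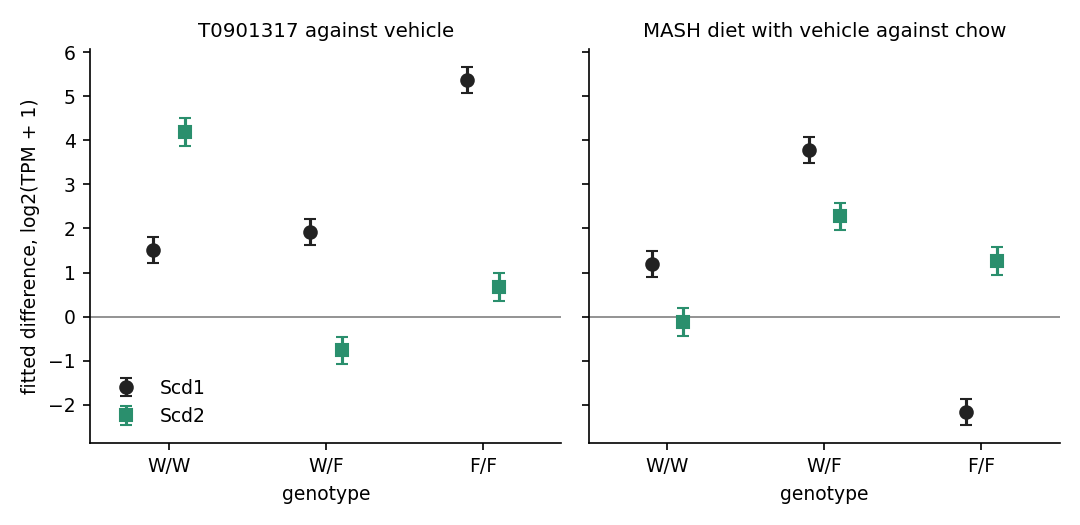
Fitted differences of Scd1 (circles) and Scd2 (squares) on the log2(TPM + 1) scale for T0901317 against vehicle (left) and the MASH diet with vehicle against chow (right), by genotype; error bars are the SE of the fit, 0.30 for Scd1 and 0.32 for Scd2. The agonist difference is 5.36 for Scd1 in F/F and 4.18 for Scd2 in W/W, and the diet difference of Scd1 is -2.16 in F/F.

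The genotypes were also compared within each treatment. On chow, mean Scd1 was 96.9-fold lower in W/F than in W/W (log2 -6.51, adjusted p 5.21e-16), the largest fall of any gene tested, in a comparison that called 0.487% of genes. It was 58.0-fold lower in F/F than in W/W (log2 -5.73, adjusted p 6.72e-15), again the largest fall, where 46.7% were called. F/F exceeded W/F by 1.67-fold on chow (log2 0.79, adjusted p 0.0329; 41.4% called), with overlapping mice, and the call was lost after rescaling (0.52, adjusted p 0.202).

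With vehicle, Scd1 was 15.4-fold lower in W/F than in W/W (log2 -3.94, adjusted p 3.04e-12; 68.5% called) and 602-fold lower in F/F than in W/W (log2 -9.09, adjusted p 1.61e-20; 76.5% called). The second of these was the largest fall of all genes tested. F/F was 39.1-fold lower than W/F (log2 -5.15, adjusted p 9.79e-14; 21.3% called), the second largest fall there. With T0901317 the 3 genotypes did not overlap either. Scd1 was then 11.5-fold lower in W/F than in W/W (log2 -3.53, adjusted p 2.67e-10; 9.88% called), 37.4-fold lower in F/F than in W/W (log2 -5.23, adjusted p 4.17e-14; 63.2% called) and 3.26-fold lower in F/F than in W/F (log2 -1.71, adjusted p 1.63e-05; 62.6% called). Without W/F T0901317 replicate 2 the Scd1 differences of W/F were -3.50 from W/W and -1.73 for F/F against W/F.

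For Scd2 the differences of W/F and F/F from W/W were positive with vehicle and negative with T0901317, while F/F was above W/F in mean in all 3 treatments. On chow it was nearly equal in W/F and W/W (log2 0.04, SE 0.32), and higher in F/F than in W/W (log2 1.36, adjusted p 9.13e-04) and than in W/F (log2 1.32, adjusted p 0.00134), both with overlapping mice. Without W/W chow replicate 2 the Scd2 differences from W/W were 0.28 in W/F and 1.60 in F/F (adjusted p 2.89e-04). With vehicle it was 7.05-fold higher in W/F than in W/W (log2 2.43, adjusted p 8.11e-08) and 8.86-fold higher in F/F than in W/W (log2 2.74, adjusted p 4.45e-09), without overlap, and did not pass the test between F/F and W/F (log2 0.31, SE 0.32, adjusted p 0.527). With T0901317 it was 5.96-fold lower in W/F than in W/W (log2 -2.52, adjusted p 8.12e-07). F/F was 1.75-fold lower than W/W with overlap (log2 -0.78, adjusted p 0.0316), a call that 5 of the 8 omissions of a mouse ended, and 3.40-fold higher than W/F (log2 1.74, adjusted p 2.95e-05). Without W/F T0901317 replicate 2 the Scd2 difference was -2.79 for W/F against W/W (adjusted p 2.19e-07) and 2.01 for F/F against W/F (adjusted p 4.61e-06).

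TPM of a library sum to a constant, and the median gene differed between groups by up to 0.70 on the log2 scale, for F/F against W/W with vehicle. Relative to that median, the rescaled difference in that comparison was 2.11 for Scd2 (adjusted p 2.16e-07) and -9.78 for Scd1 (adjusted p 4.44e-21). For T0901317 in W/F the median moved by -0.49 and the Scd1 rise was 2.43 after rescaling (adjusted p 8.63e-08). No Scd1 or Scd2 difference changed sign with rescaling.

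Markers of other cell types also differed in the mutant vehicle livers, in comparisons that called 61.6% of all genes higher and 6.83% lower in W/F, and 69.3% higher and 7.13% lower in F/F. Before rescaling, the share of macrophage markers called higher was near or below these values. Against W/W with vehicle, 7 of 11 Kupffer cell and macrophage markers were higher and 2 lower in W/F, and 6 were higher and 5 lower in F/F. These counts were the same after rescaling, where 31.9% of all genes were higher and 21% lower in W/F, and 35.9% and 23.2% in F/F. The share of macrophage markers called higher was then above that of all genes in both mutants, as was the share called lower in F/F. All 8 stellate cell and fibroblast markers and all 5 bile duct markers were higher in both mutants, although 7 of the 8 stellate markers were so in F/F after rescaling. Of 4 neutrophil markers tested, 3 were higher in W/F and 4 in F/F. Of 3 lymphocyte markers tested, 2 were higher in each, with 1 lower in W/F. Of 6 endothelial markers, 1 was higher and 2 lower in W/F, and 2 were higher and 2 lower in F/F. Of 6 hepatocyte markers, 3 were lower in W/F and 4 in F/F. After rescaling, 5 and 6 hepatocyte markers were lower, 5 and 4 endothelial markers were lower with 0 and 1 higher, and 1 lymphocyte marker was higher in each mutant, with 3 neutrophil markers higher in F/F. On chow, where Scd2 was higher in F/F than in W/W, 43% of all genes were called higher (18.8% after rescaling). Of the markers, 7 of the 8 stellate and all 5 bile duct markers were higher too, with 6 macrophage markers higher and 5 lower. These counts were the same after rescaling. With T0901317 in W/F, 59.3% of all genes were called lower (31.6% after rescaling), and the Scd2 fall was lost after rescaling. In that comparison 7 macrophage markers fell and 2 rose (8 and 1 without replicate 2). All 8 stellate markers (7 after rescaling) and all 5 bile duct markers fell. The part of these cells in the Scd2 differences was not tested.

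In summed TPM, the macrophage list was at 201 to 261 in W/W vehicle, 1096 to 1563 in W/F vehicle and 1132 to 1397 in F/F vehicle mice, and the bile duct list at 54.0 to 61.4, 1163 to 1590 and 2908 to 3554. In W/W mice with T0901317, where Scd2 was highest, the macrophage list was at 231 to 448 and 1 of its 11 markers was called higher. That count is near the share of all genes, of which 7.87% were called higher and 2.91% lower with T0901317 in W/W. The stellate list there was at 132 to 250, against 95.5 to 155 with vehicle, and 2 of its markers were called higher. The bile duct list, at 94.2 to 170, did not overlap with that of vehicle mice and 1 of its markers was called higher, as was 1 endothelial marker. The macrophage list overlapped with that of vehicle mice through 1 mouse, at 231 TPM. The part of these cells in the Scd2 difference of 25.3-fold was not tested either. In W/F mice with T0901317, replicate 2 was highest in both Scd2 (19.2 TPM) and the macrophage list (765 TPM). In F/F mice the hepatocyte list was at 67211 to 87401 on chow, 33421 to 37794 with vehicle and 51058 to 69244 with T0901317. Of its 6 markers, 4 were lower on the diet, where 9.27% of all genes were lower, and 4 were higher with T0901317, where 3.95% were higher. The part of hepatocytes in the Scd1 differences was not tested.

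Adipose tissue makes much Scd1, so adipocyte markers were set beside it. Adipoq was at a group mean of at most 0.0719 TPM and Lep was listed at 0 in every group. Cfd, the 1 adipocyte marker that passed the filter, was at 292 TPM in W/W vehicle, 82.8 in W/W T0901317, 146 in W/F T0901317 and at most 5.26 TPM in the other groups.

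The other genes of the pathway were followed in 5 lists, of which Olah and Cyb5r2 did not meet the filter. Substrate supply covers genes of fatty acid synthesis, elongation and activation, not all of them specific to saturated chains. With T0901317 in W/W, 13 of its 15 tested genes rose and none fell, with a list median of 1.66 on the log2 scale against 0.06 for all genes, of which 7.87% rose and 2.91% fell. The largest rises were Acacb (acetyl-CoA carboxylase 2, 2.69), Fasn (fatty acid synthase, 2.67), Acss2 (acetyl-CoA synthetase, 2.503) and Elovl6 (which lengthens palmitoyl-CoA to stearoyl-CoA, 2.43). Me1, Acly and Acaca were also among the genes that rose with Scd1 in W/W.

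In W/F, 5 of the 15 rose and 2 fell with T0901317, and 10 rose and 2 fell after rescaling, with a list median of 0.20 against -0.49 for all genes, of which 6.59% rose and 59.3% fell. Without replicate 2 the counts were again 5 and 2. Elovl3, an elongase of saturated and monounsaturated acyl chains, rose by 4.34, Fasn by 1.98, Acsl1 (long-chain acyl-CoA synthetase) by 1.82 and Elovl6 by 1.74. In F/F, 5 rose and 1 fell (6 and 0 after rescaling), led by Elovl6 at 1.25, Fasn at 1.21, Acaca at 0.80 and Acsl3 at 0.75, with a list median of 0.24 against -0.24 for all genes, of which 3.95% rose and 31.2% fell. The shares of all genes after rescaling were 19.9% up and 31.6% down in W/F, and 7.94% and 9.32% in F/F. For W/W, W/F and F/F in turn, the Scd1 differences of 1.51, 1.92 and 5.36 thus stood beside Fasn differences of 2.67, 1.98 and 1.21.

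Among the other desaturases listed, of the Fads and Degs families, 3 of 6 rose in W/W with T0901317 and none fell (list median 0.79). These were the 3 front-end desaturase genes Fads3 (2.29), Fads2 (1.35) and Fads1 (1.12), of which Fads1 and Fads2 make polyunsaturated fatty acids. In W/F, 4 fell and none rose, with Degs2 at -1.83, Fads3 at -1.18, Degs1 at -0.88 and Fads6 at -0.40, a share near the 59.3% of all genes that fell. The list median was -0.64 against -0.49 for all genes, and the split was 2 up and 3 down after rescaling and 0 up and 4 down without replicate 2. In F/F, where 3.95% of all genes rose and 31.2% fell, Degs1 fell (-0.56) and none rose, against 2 up and 1 down after rescaling. The shares of all genes after rescaling were 19.9% up and 31.6% down in W/F, and 7.94% and 9.32% in F/F. Fads3 had means of 8.15 TPM in W/W vehicle, 41.2 in W/W T0901317, 14.6 in W/F vehicle and 5.94 TPM in W/F T0901317.

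Of the 5 tested genes that carry electrons to the desaturase, 2 rose with T0901317 in W/W, Cyb5r3 (cytochrome b5 reductase, 1.05) and Cyb5b (0.61), with a list median of 0.08. In W/F, Cyb5a (cytochrome b5 of the endoplasmic reticulum) rose by 0.62, and Cyb5r1 (-1.34) and Cyb5r4 (-0.74) fell, the same counts as without replicate 2, against 3 up and 2 down after rescaling. In F/F, Cyb5a rose by 0.52 and Cyb5r4 fell (-0.36), against 1 up and 0 down after rescaling. Of all genes, 7.87% rose and 2.91% fell in W/W, 6.59% and 59.3% in W/F, and 3.95% and 31.2% in F/F. The shares of all genes after rescaling were 19.9% up and 31.6% down in W/F, and 7.94% and 9.32% in F/F. The list medians were -0.18 in W/F and 0.03 in F/F, against -0.49 and -0.24 for all genes.

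Genes that use monounsaturated products rose in W/W with T0901317 in 10 of 14 cases, and none fell (list median 0.82). Pnpla3, a lipid droplet hydrolase, rose by 4.53, Mogat1 (monoacylglycerol acyltransferase) by 2.22, Cidec (a lipid droplet protein) by 2.15 and Gpam (the first enzyme of glycerolipid synthesis) by 1.82. In W/F, 2 rose and 6 fell (7 and 1 after rescaling, 2 and 5 without replicate 2), with Soat1, which esterifies cholesterol, at -2.54, Gpam at -0.99, Plin2 at -0.75 and Lpcat3 at 0.65. In F/F, 1 rose and 4 fell (4 and 1 after rescaling), with Soat1 at -1.06 and Lpcat3, an LXR target that remodels phospholipids, at 0.81. The list medians were -0.02 in W/F and 0.08 in F/F, against -0.49 and -0.24 for all genes. The shares of all genes after rescaling were 19.9% up and 31.6% down in W/F, and 7.94% and 9.32% in F/F. Of all genes, 7.87% rose and 2.91% fell in W/W, 6.59% and 59.3% in W/F, and 3.95% and 31.2% in F/F.

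Among 14 regulators, 5 rose in W/W with T0901317 and none fell (3 and 1 after rescaling). Among the 5, the largest rises were Insig1 (1.12), Mid1ip1 (0.88), Srebf1 (the gene of SREBP-1, 0.88) and Srebf2 (0.58). Thrsp, a lipogenic regulator, had a larger difference (1.91) that missed the threshold (adjusted p 0.0627). In W/F, 6 rose and 3 fell (8 and 1 after rescaling, 6 and 3 without replicate 2), with Thrsp at 4.95, Srebf1 at 2.67, Mid1ip1 at 2.02 and Mlxipl (the gene of ChREBP) at 1.32. In F/F, 5 rose and 2 fell (5 and 1 after rescaling), with Thrsp at 3.68, Srebf1 at 2.43, Mlxipl at 1.41 and Insig1 at 1.02. The list medians were 0.43, -0.08 and -0.03 for W/W, W/F and F/F. The shares of all genes after rescaling were 8.4% up and 5.58% down in W/W, 19.9% and 31.6% in W/F, and 7.94% and 9.32% in F/F. Of all genes, 7.87% rose and 2.91% fell in W/W, 6.59% and 59.3% in W/F, and 3.95% and 31.2% in F/F. Mean Srebf1 was 398 TPM in W/W vehicle, 61.8 in W/F vehicle and 23.8 TPM in F/F vehicle mice. Nr1h3, the usual symbol of the LXRalpha gene, was between 86.8 and 108 TPM in all 9 group means.

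**Figure D5:**
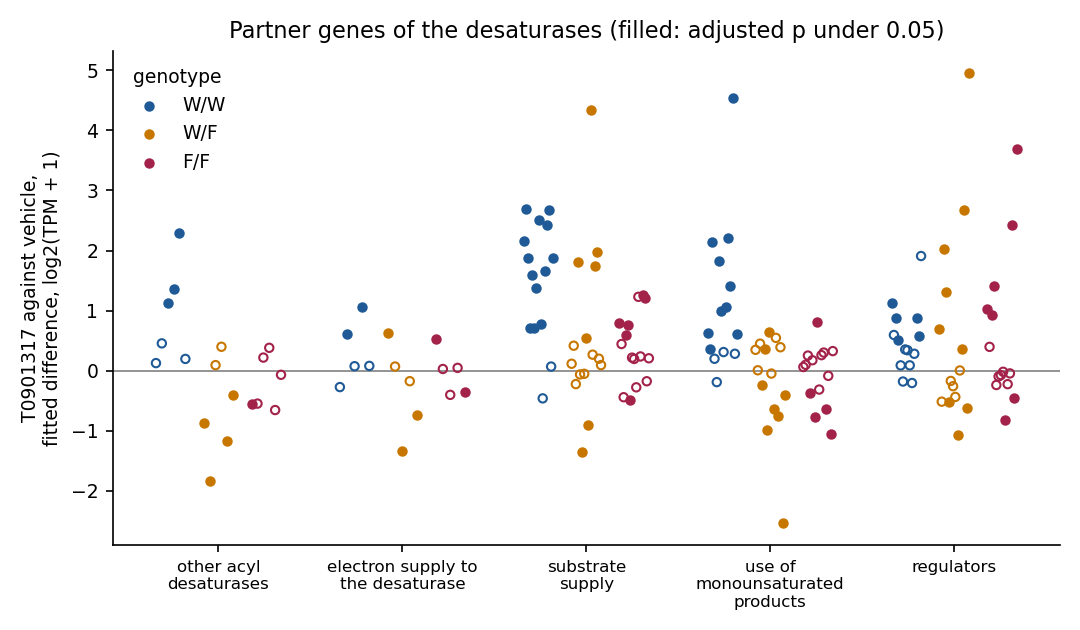
Fitted T0901317-against-vehicle differences on the log2(TPM + 1) scale for the tested genes of 5 lists, by genotype; each point is a gene, filled where limma's adjusted p is under 0.05. In W/W, 13 of the 15 substrate supply genes are filled and above 0, against 5 in W/F and 5 in F/F.

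Between genotypes with vehicle, substrate supply fell in 12 of 15 genes and rose in 2, Acsl4 and Elovl1, in each mutant against the W/W mice. Of all genes, 6.83% were called lower and 61.6% higher in W/F, and 7.13% and 69.3% in F/F. The list median in W/F was -1.03 against 0.52 for all genes. In F/F the largest falls were Elovl3 (-6.74), Fasn (-3.74) and Elovl6 (-2.64), beside -9.09 for Scd1, and the list median was -1.19 against 0.70 for all genes. On chow, W/F against W/W called 3 of the 15, all lower: Acacb (-1.96), Elovl5 (-1.59) and Acsl5 (-0.58). Among the regulators in that comparison, Srebf1 was lower (-1.34) and Srebf2 higher (0.58), and 1 of the 14 genes that use monounsaturated products was lower. None of the other desaturases or electron carriers was called there, which is near the share of all genes called, 0.487%. Scd1 differed by -6.51 in the same comparison, and kept its call under every alternative (limma adjusted p at most 0.0116). A fit of the compared groups alone called only 3 genes there, against 81 in the main fit. Not all of the calls named here for partner genes can therefore hold in that fit.

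The genes whose log2 levels ran most like those of each member over the 36 livers were found among 11194 genes with a mean of at least 5 TPM in some group. These are descriptions over points that share genotype, diet and library. For Scd1 they included 1700080G11Rik (Pearson r 0.917), Cyp4a10 (0.905), Apoc1 (0.898) and Nkx2-6 (0.895). Cyp4a10, a fatty acid hydroxylase, had means of 1760 TPM in W/W T0901317, 748 in W/W vehicle, 34.8 in W/F vehicle and 9.67 TPM in F/F vehicle. After rescaling, Ehhadh and Fabp2 took the places of Apoc1 and Nkx2-6.

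For Scd2 they were Akr1b7 (0.929), Gramd1b (0.906), Pyroxd2 (0.888), Acad12 (0.886) and Atp9a (0.883). Akr1b7, an aldo-keto reductase, had means of 0.450 TPM in W/W vehicle, 15.8 in W/W T0901317, 4.65 in W/F vehicle and 7.08 TPM in F/F vehicle. Gramd1b, which encodes a protein that moves cholesterol to the endoplasmic reticulum, had 1.05, 4.98, 3.87 and 5.74 TPM in the same 4 groups. The means of both, like those of Scd2, were higher with T0901317 in W/W and in the mutant vehicle livers than in W/W vehicle livers. After rescaling, Foxj2 and Gal3st1 took the places of Pyroxd2 and Acad12.

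The genes around the cluster did not share this range. Of 14 other genes listed within 250 kb of it, 9 reached a mean of 5 TPM in some group. Their highest and lowest group means differed by 1.32-fold in Cpn1 to 8.24-fold in Cyp2c23, and the next was 2.42-fold, against 1659-fold for Scd1 and 25.3-fold for Scd2. Cyp2c23, a cytochrome P450, was at 472 TPM in W/W vehicle and 57.3 TPM in F/F vehicle.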

How the data were processed

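The authors deposited 1 table of TPM, per its column names, and each library sums to 1000000. Per the submitters' processing notes, reads were handled with Trimmomatic 0.36, STAR 2.5.2b and featureCounts of Subread 1.5.2 on GRCm38. The annotation and the treatment of reads that match several genes are not given in the sources used here. Depth was recovered from the spacing of values between 0.02 and 0.4 TPM and GENCODE M21 exon lengths: 93.0% to 95.1% of low genes then lay within 0.1 of whole reads, where chance gives 20%. Exon positions, sequences and identities came from M21, which uses the same build.

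The 16638 genes that reached 1 TPM in 4 or more samples were fitted as log2(TPM + 1) with limma 3.58.1 in R 4.3.3, with 1 mean per group, and the spread was estimated over all 36 samples. The 21 comparisons were tested on both sides and adjusted by Benjamini-Hochberg over all genes of each. The script was tested on simulated data. Rescaled values were divided by median-of-ratios factors from 10269 genes above 1 TPM in all samples. Alternatives were a pseudocount of 0.1, no filter, at least 5 TPM in 4 samples, rescaling, the replicate number as a block, fits of only the groups compared, and omission of each mouse.

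All members were reported, and from each list up to 4 called genes with the largest differences. The marker lists covered hepatocytes, Kupffer cells and macrophages, endothelial, stellate and bile duct cells, lymphocytes, neutrophils and adipocytes. Fads3 levels, Me1, Acly, Acaca Thrsp in W/W and the levels of Srebf1 and Nr1h3 were added after their values were seen. One gene among those most like Scd1 is not reported here. The members and lists were chosen with earlier results of these data known. The labels do not describe how the mice of a group are related, and p-values measure the spread among them.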

Additional observations from a re-analysis of the deposited data

Results flagged for a closer look

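Some single mice lay far from the other 3 of their group, by Dixon's test at 95%, which flags about 1 in 20 groups by chance. For Scd2 this was F/F vehicle replicate 1, at 17.3 TPM. For Scd3 it was 1 mouse each in W/F chow (0.0334 TPM), W/F vehicle (0 TPM) and F/F chow (0.0352 TPM), and for Scd4 in W/W chow (0.0700 TPM), W/W vehicle (0.108 TPM) and W/F chow (0.0308 TPM). The Scd3 and Scd4 values rest on 0 to 4 reads.

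Responses that differed between genotypes by limma's test of the difference itself were also looked at again. For T0901317 the log2 difference of responses was 3.86 for Scd1 and -3.52 for Scd2 in F/F minus W/W, -4.95 for Scd2 in W/F minus W/W, and 3.44 for Scd1 and 1.43 for Scd2 in F/F minus W/F. For the diet it was 2.57 for Scd1 and 2.40 for Scd2 in W/F minus W/W, -3.36 for Scd1 and 1.38 for Scd2 in F/F minus W/W, and -5.94 for Scd1 in F/F minus W/F.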

How the results depend on the processing

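No Scd1 or Scd2 difference past the threshold changed sign under any alternative. With the replicate block, all 21 comparisons of Scd1 and all 21 of Scd2 kept their call, for example 1.51 for Scd1 with T0901317 in W/W. Correlations between the deviations of same-numbered mice ran from -0.17 to 0.30, with 0 of 15 comparisons having every pair above 0.1. In some comparisons all 4 were positive, such as W/F against W/W on T0901317 (0.05 to 0.30). The mice were treated as unpaired, but this check cannot show that mice of the same number are unrelated. Calls were lost, and the cause was not tested, as follows. For Scd2 with T0901317 in W/F the difference was -0.77 without the filter (adjusted p 0.0637), -0.30 rescaled and -1.04 to -0.58 without 1 mouse, where 6 of 8 omissions ended the call. For Scd2 in F/F against W/W on T0901317 it was -0.80 with a pseudocount of 0.1, -0.78 without the filter and -0.97 to -0.61 without 1 mouse. For Scd1 in F/F against W/F on chow it was 0.79 without the filter, 0.52 rescaled, 0.79 in the groups' own fit and 0.56 to 1.06 without 1 mouse, where 4 of 8 ended it. Scd1 with the diet in W/W was 1.20 in its own fit (adjusted p 0.148). The Scd2 diet response of F/F minus W/W was 1.00 rescaled, and its T0901317 response of F/F minus W/F was 1.24 to 1.70 without 1 mouse. Calls were gained for Scd2 with T0901317 in F/F, at 0.89 rescaled and 0.66 in its own fit, and for its diet response of F/F minus W/F at -1.39 without F/F chow replicate 2 (range -1.39 to -0.83).

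Counts of called genes also moved. Rescaling took them from 5841 to 2814 for T0901317 in F/F, from 7764 to 4705 on chow for F/F against W/W, from 3552 to 1748 and from 10409 to 6535 for F/F against W/F with vehicle and T0901317, and from 5065 to 2954 and from 7654 to 4465 for the T0901317 and diet responses of F/F minus W/W. Fits of the compared groups alone took them from 2141 to 580 for the diet in W/W and from 81 to 3 on chow for W/F against W/W. Without 1 mouse they were 3244 for T0901317 in F/F (without F/F T0901317 replicate 3), 1266 and 1091 for the diet in W/W (without chow replicate 2 or vehicle replicate 1) and 53 on chow for W/F against W/W (without W/W chow replicate 4). They fell from 3191 to 1907 for the T0901317 response of F/F minus W/F (without W/F T0901317 replicate 1) and from 1136 to 703 to 746 for its diet response (without W/F vehicle replicate 3, F/F chow replicate 3 or 4). Depth limits Scd3 and Scd4, which had at most 17 reads in a library.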
